A study of Homo sapiens with 30 samples.

Results

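HepG2, an established line of human liver cancer cells, was transfected with a mimic control (MC), a control oligonucleotide for microRNA mimics, and 24 h later received Sorafenib at 10 µM or its solvent dimethyl sulfoxide (DMSO) for 24 h. The 3 libraries of Sorafenib (MC_sorafenib) were set against the 3 of DMSO (MC_DMSO), 6 of the 30 libraries of the series, and every gene of the count table was a candidate. Both groups share the transfection, and the cells are a single tumour line in bulk culture. The other groups of 24 h carried instead a mimic of miR-222-5p, called M222, or of miR-512-3p, called M512. They had the same dose and time and 3 libraries of DMSO and 3 of Sorafenib each. For the gene CYP1A1 alone, libraries of a 6 h experiment were also read. These carried an inhibitor control or an inhibitor of miR-200c-3p, with DMSO or Sorafenib at 10 µM for 6 h. The labels describe the replicates as biological. Sorafenib, a drug against liver cancer, blocks several kinases and acts on RAF kinases and on receptors of the vascular and platelet-derived growth factors.

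Several cellular programmes are known to answer drugs of this kind. In the integrated stress response, kinases that sense amino acid shortage, misfolded protein or mitochondrial damage slow translation, and the factor ATF4 then turns on genes of amino acid supply and, through DDIT3, of cell death. Metallothioneins are small cysteine-rich proteins that bind zinc and copper, and the metal-sensing factor MTF1 acts on metal response elements before their genes. Hepatocytes also carry a programme of sterol and fatty acid synthesis and of secreted plasma proteins that depends on factors such as HNF4A.

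The libraries were examined before the response. The total was 3941570 to 7585221 counts per MC library, so a count of 0 allows a level of up to 0.396 to 0.761 counts per 1000000 counts (CPM), taking 3 counts as the limit; no molecular identifiers are stated, and such limits cover counting error only. Defining liver markers were present in all 6 libraries, with the summed level of 12 liver genes at 14421 to 16197 CPM with DMSO and 10813 to 12959.6 CPM with Sorafenib. Of 14 markers of blood, endothelial and connective tissue cells, 7 were at 0 in all 6 libraries, and the list summed to 91.2 to 123 CPM with DMSO and 63.8 to 76.8 CPM with Sorafenib. Replicate 2 stood apart in both groups. MC_DMSO replicate 2 and MC_sorafenib replicate 2 were the shallowest (3941570 and 4939876 counts) and yet had the most genes with a count, 16334 and 16132 against 13394 to 15250 in the other 4 libraries. Their log-scaled levels correlated with each other at 0.974 across 8734 genes, above the correlation of either with any library of its own group (0.927 to 0.960). They also resembled replicate 2 of M222, with correlations of 0.955 to 0.978, so the M222 libraries are not free of the same feature.

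CYP1A1, a monooxygenase gene induced by aromatic hydrocarbons, was at 13.2 and 12.6 CPM of all counts in the 2 MC libraries of replicate 2 and at 1.00 to 1.87 CPM in the other 4. In M222 it was at 14.3 and 10.7 CPM in replicate 2 and at 0 to 0.914 CPM elsewhere. In the 6 h experiment, with the inhibitor control or the miR-200c-3p inhibitor, the DMSO libraries held 33.9 to 86.2 CPM. With Sorafenib at 6 h, the inhibitor control held 12.5, 15.8 and 2.92 CPM and the miR-200c-3p inhibitor 0.12 to 1.97 CPM. In M512 the gene was at 2.03 to 2.59 CPM with DMSO and at 0 to 0.233 CPM with Sorafenib. IGFBP1, a secreted binder of insulin-like growth factors, was at 49.2 and 71.3 CPM in the MC libraries of replicate 2 and at 22.5 to 29.1 CPM in the others. Whether RNA or reads of other libraries are present in replicate 2 was not tested. Results are given with 6 libraries. The counts of each list and the values of many genes, but not of all, are also given without replicate 2 of both MC groups. Levels are in CPM scaled by TMM, which matches libraries on the bulk of their genes, and SE is the standard error of a log2 fold change. A value given alone for a gene is its log2 fold change of Sorafenib against DMSO with 6 libraries, unless stated otherwise.

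To place each library, 368 genes called in the same direction in M222 and M512 were scaled so that the DMSO libraries of the mimics average 0 and their Sorafenib libraries 1. MC_DMSO replicates 1, 2 and 3 lay at -0.034, 0.171 and -0.116, and MC_sorafenib replicates 1, 2 and 3 at 0.912, 0.543 and 0.939. Both libraries of replicate 2 lay nearer to the middle than the others of their group, and MC_sorafenib replicate 2 lay nearest to it. In M222, replicate 2 was at 0.187 with DMSO and 0.778 with Sorafenib. The direction of the treatment held in all 3 replicates of MC. This scale is a description with no test, and the fit behind the calls in the mimics also held the MC libraries.

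**Figure D1:**
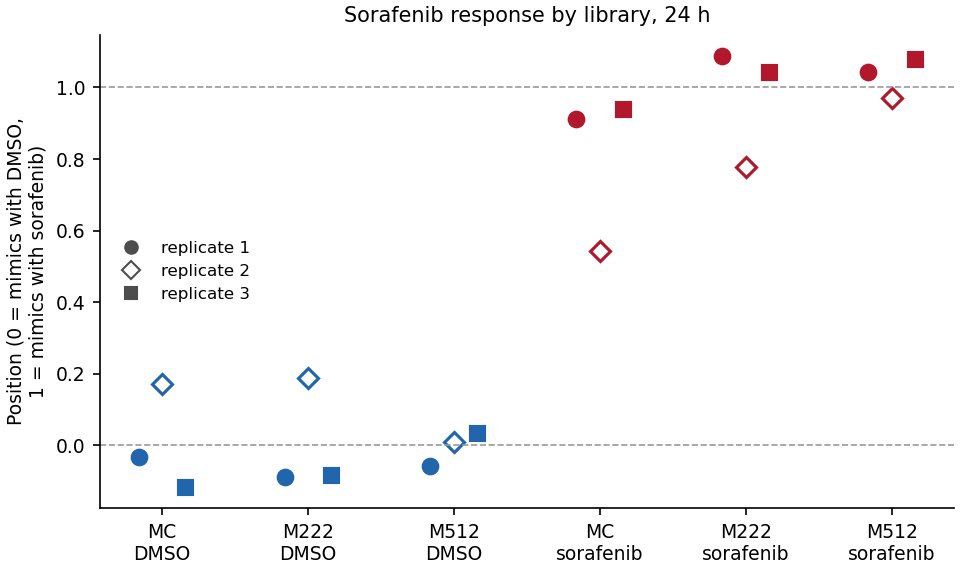
Position of the 18 libraries of 24 h between the mean of the mimics with DMSO (0) and with Sorafenib (1), over 368 genes called in both mimics. Open diamonds are replicate 2, at 0.171 and 0.543 in MC, while the other MC libraries lie from -0.116 to -0.034 with DMSO and from 0.912 to 0.939 with Sorafenib.

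The first question was how many genes Sorafenib changed. Of 13244 genes tested, 344 were called at a Benjamini-Hochberg adjusted p under 0.05 in the quasi-likelihood test of edgeR (2.6%), with 239 higher (1.8%) and 105 lower (0.793%). Without replicate 2 the count was 590 of 13968 (4.22%), with 337 higher (2.41%) and 253 lower (1.81%). Both fits called 318 genes, each in the same direction, while 26 were called with replicate 2 alone and 272 without it alone. Of the 344 genes, 341 had a larger log2 fold change without replicate 2, and the median ratio of both values was 1.25. MC_sorafenib replicate 2 was nearer to DMSO than the mean of replicates 1 and 3 in 333 of these genes, and MC_DMSO replicate 2 nearer to Sorafenib in 307. The groups did not overlap in 340 of the 344 genes, against 3302 of all genes tested (24.9%). The 344 genes were called on these same libraries, so this count follows largely from the call and is no separate support. Counts with 1 MC library left out ranged from 112, without MC_DMSO replicate 3, to 602, without MC_sorafenib replicate 2; those without MC_DMSO replicate 1, MC_sorafenib replicate 1 and MC_sorafenib replicate 3 were 132, 134 and 116. Scaling also mattered, since total counts in place of TMM moved the median of all genes from -0.01 to -0.12 and the split of calls to 174 higher and 173 lower. Without replicate 2, total counts gave 240 higher and 364 lower, so that most calls were then lower. The TMM shares over all genes, 1.8% higher and 0.793% lower, are the background of the lists below (2.41% and 1.81% without replicate 2). Of 757 tested genes in the functional lists, 67 were called (8.85%), and the lists were chosen with earlier results known. A list with 0 or 1 call does not stand apart from the background by its count.

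**Figure D2:**
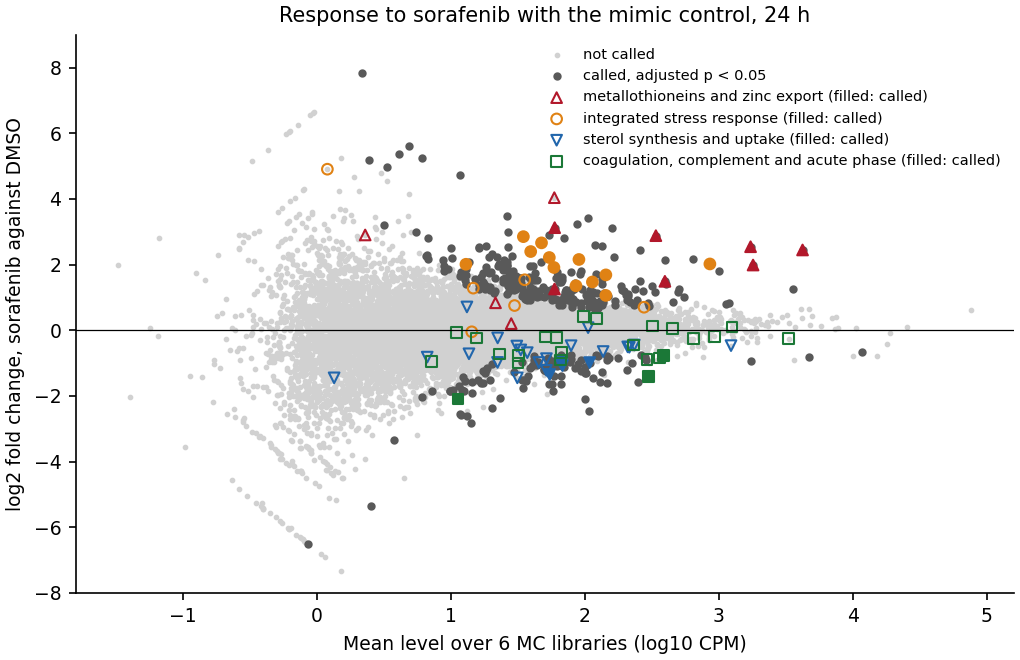
Log2 fold change of Sorafenib against DMSO (y axis) by the mean level over the 6 MC libraries in log10 CPM (x axis), with 1 point per gene. Called genes are dark, and members of 4 lists carry symbols that are filled where called: the called metallothioneins and stress response genes lie above 0 and the called sterol and plasma protein genes below it.

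Metallothionein genes were higher with Sorafenib. Of 11 members tested in a list of 12 metallothionein and zinc genes, 7 rose and 0 fell, with a median log2 fold change of 2.44 against -0.01 for all genes, and without replicate 2 there were 8 higher with a median of 3.17. MT2A (ENSG00000125148, chr16:56608584-56609497, GRCh38) had 798, 2133 and 987 CPM with DMSO and 8246, 4984 and 8083 CPM with Sorafenib, in the order of replicates 1, 2 and 3 that is kept below. Each Sorafenib library was above each DMSO library, with replicate 2 the highest of DMSO and the lowest of Sorafenib. The mean went from 1306 ± 722 CPM with DMSO to 7104 ± 1838 CPM with Sorafenib (SD, n = 3; log2 fold change 2.44, SE 0.37, edgeR adjusted p 0.000532), and the log2 fold change was 3.17 (SE 0.39, edgeR adjusted p 4.93e-05) without replicate 2. MT1G had 375, 773 and 366 CPM with DMSO and 3427, 1913 and 3472 CPM with Sorafenib (log2 fold change 2.54, SE 0.34, edgeR adjusted p 0.000514, and 3.20 without replicate 2). MT1X had 64.5, 119.6 and 59.5 CPM with DMSO and 835, 351 and 599 CPM with Sorafenib (log2 fold change 2.88, SE 0.38, edgeR adjusted p 0.000507, and 3.51 without replicate 2). In both genes replicate 2 was again the highest of DMSO and the lowest of Sorafenib.

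MT1E rose by 1.99 on the log2 scale and MT1F by 1.49. MT1M had 5.54, 30.1 and 3.15 CPM with DMSO and 108, 70.7 and 139 CPM with Sorafenib (log2 fold change 3.12, SE 0.59, edgeR adjusted p 0.00369), and its log2 fold change was 4.80 (SE 0.60, edgeR adjusted p 4.93e-05) without replicate 2. MT1B had 0, 22.8 and 0.430 CPM with DMSO and 115, 80.8 and 135 CPM with Sorafenib. It held 3 counts over replicates 1 and 3 of DMSO, so its fold is not given, and it was called without replicate 2 (edgeR adjusted p 0.00161) but not with it (0.0544). MT1A had 14.9, 18.7 and 12.9 CPM with DMSO and 26.1, 24.3 and 32.0 CPM with Sorafenib and did not pass the test (adjusted p 0.134). SLC30A1, which carries zinc out of the cell, had 36.7, 45.8 and 22.8 CPM with DMSO and 81.1, 66.1 and 103 CPM with Sorafenib (log2 fold change 1.25, SE 0.28, edgeR adjusted p 0.0154, and 1.61 without replicate 2). MTF1, the metal sensor itself, was at 33.5, 19.6 and 25.2 CPM with DMSO and 38.4, 26.9 and 25.2 CPM with Sorafenib (log2 fold change 0.20, adjusted p 0.785). The call of SLC30A1 was lost when MC_DMSO replicate 1, MC_DMSO replicate 3 or MC_sorafenib replicate 3 was left out (edgeR adjusted p 0.0583 to 0.159). Metallothionein genes resemble each other closely in sequence, so reads may have been split among them and values of single members are uncertain.

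The members moved together, so the 250 bases before their starts were searched for the core of the metal response element. The words searched were TGCACNC and TGCGCNC on both strands, which cannot match at the same place. Of the 12 listed genes, 6 had a promoter in the RefSeq table (GRCh38.p14), and 5 of these held a match, 4 of them more than once. Of all 35116 windows of this length, 24.83% held either word (9.867% and 16.79% for each). MT2A held 7 matches, MT1X 4, SLC30A1 1 and MTF1 0. A match is a description of the letters and not a bound site. The windows of MT2A (chr16:56608334-56608583, plus strand), MT1X (chr16:56682220-56682469, plus strand) and SLC30A1 (chr1:211579162-211579411, minus strand) are printed 5′ to 3′ up to the base before the start, with matches in capitals, to show how the dense set of a metallothionein differs from that of the zinc exporter.
MT2A: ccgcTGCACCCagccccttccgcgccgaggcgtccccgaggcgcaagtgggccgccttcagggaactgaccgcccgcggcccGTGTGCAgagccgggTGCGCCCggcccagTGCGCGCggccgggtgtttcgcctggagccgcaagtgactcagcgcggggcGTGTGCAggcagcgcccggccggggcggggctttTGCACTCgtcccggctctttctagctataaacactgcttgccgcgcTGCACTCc
MT1X: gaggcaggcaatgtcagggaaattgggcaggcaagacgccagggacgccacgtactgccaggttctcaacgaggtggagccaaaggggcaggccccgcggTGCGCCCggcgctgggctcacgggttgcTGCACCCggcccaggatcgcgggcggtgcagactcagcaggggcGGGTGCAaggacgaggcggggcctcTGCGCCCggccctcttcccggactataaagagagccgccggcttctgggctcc
SLC30A1: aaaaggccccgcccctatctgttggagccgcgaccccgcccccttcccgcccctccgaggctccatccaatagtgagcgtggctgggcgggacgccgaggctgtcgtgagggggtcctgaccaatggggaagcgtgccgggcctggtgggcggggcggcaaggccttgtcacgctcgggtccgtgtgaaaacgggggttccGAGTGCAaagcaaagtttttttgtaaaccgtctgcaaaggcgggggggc

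Genes of the integrated stress response were higher with Sorafenib, and none of the list was called lower. Of 18 members tested, 12 rose and 0 fell, both with and without replicate 2, and the median log2 fold change was 1.80 and 2.20. PPP1R15A (ENSG00000087074, chr19:48872212-48876059), which directs removal of the phosphate from eIF2 alpha, had 12.98, 14.8 and 11.2 CPM with DMSO and 103, 60.02 and 81.9 CPM with Sorafenib (log2 fold change 2.66, SE 0.38, edgeR adjusted p 0.000532, and 2.92 without replicate 2). DDIT3, the pro-apoptotic factor CHOP, had 11.3, 17.5 and 9.32 CPM with DMSO and 81.1, 38.5 and 78.2 CPM with Sorafenib (log2 fold change 2.40, SE 0.39, edgeR adjusted p 0.000907, and 2.93 without replicate 2). ATF3, a stress-induced repressor, had 3.91, 18.2 and 4.44 CPM with DMSO and 59.1, 39.9 and 82.5 CPM with Sorafenib (log2 fold change 2.85, SE 0.52, edgeR adjusted p 0.00274, and 4.06 without replicate 2), and in DMSO its replicate 2 was several times above the others. In each of these 3 genes the groups did not overlap and MC_sorafenib replicate 2 was the lowest Sorafenib library.

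GDF15 (ENSG00000130513, chr19:18374731-18389176), a secreted stress cytokine, went from 339 ± 88.6 CPM with DMSO to 1372 ± 775 CPM with Sorafenib (log2 fold change 2.02, SE 0.30, edgeR adjusted p 0.000532, and 2.29 without replicate 2), with 2216, 692 and 1207 CPM in the Sorafenib libraries. TRIB3, a pseudokinase induced by ATF4 and CHOP, rose by 1.69 on the log2 scale. ASNS, which makes asparagine, had 15.9, 26.7 and 15.6 CPM with DMSO and 102, 57.1 and 107 CPM with Sorafenib (log2 fold change 2.21, SE 0.35, edgeR adjusted p 0.000833, and 2.72 without replicate 2). The bZIP factors CEBPB and CEBPG rose by 2.15 and 1.91, the stress-induced NUPR1 by 1.47, STC2 by 1.35, the cystathionine lyase CTH by 2.01 and SESN2 by 1.06. ATF4, whose control is largely by translation, was at 221, 219 and 191 CPM with DMSO and 380.2, 253 and 391 CPM with Sorafenib and did not pass the test (log2 fold change 0.70, adjusted p 0.114), nor without replicate 2 (edgeR adjusted p 0.0803). DDIT4 had 14.1, 23.5 and 17.2 CPM with DMSO and 53.5, 53.9 and 50.5 CPM with Sorafenib and was likewise not called (log2 fold change 1.54, adjusted p 0.111). CTH lost significance when MC_DMSO replicate 1 or MC_DMSO replicate 3 was left out (edgeR adjusted p 0.0675 to 0.0758). For NUPR1, the call ended on leaving out MC_DMSO replicate 1 (edgeR adjusted p 0.06). The call of SESN2 was lost when any 1 of the 4 libraries of replicates 1 and 3 was left out (edgeR adjusted p 0.122 to 0.156).

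Among 19 genes of amino acid synthesis and transport, 3 rose and 0 fell (median 0.30). For amino acid genes the calls numbered 4 higher and 0 lower of 19 without replicate 2. SLC7A11, the cystine importer, had 9.20, 20.9 and 8.46 CPM with DMSO and 95.8, 57.9 and 129 CPM with Sorafenib (log2 fold change 2.91, SE 0.42, edgeR adjusted p 0.000532, and 3.65 without replicate 2). Its partner chain SLC3A2 had 165, 231 and 138 CPM with DMSO and 513, 336 and 521 CPM with Sorafenib (log2 fold change 1.36, SE 0.28, edgeR adjusted p 0.00767, and 1.75 without replicate 2). MTHFD2, a mitochondrial folate enzyme, rose by 1.14. PSAT1 of serine synthesis was at 143, 202 and 131 CPM with DMSO and 195, 246 and 283 CPM with Sorafenib (log2 fold change 0.61, adjusted p 0.205). SLC3A2 lost significance when MC_DMSO replicate 1, MC_DMSO replicate 3 or MC_sorafenib replicate 3 was left out (edgeR adjusted p 0.0503 to 0.0807). For MTHFD2, the call ended on leaving out any 1 of the 4 libraries of replicates 1 and 3 (edgeR adjusted p 0.088 to 0.23).

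Of 20 cytosolic transfer RNA synthetases, which load amino acids and include known ATF4 targets, 4 rose, 18 had a positive sign and the median was 0.50. For these synthetases the calls numbered 5 higher and 0 lower of 20 without replicate 2, and 1 with total counts or in the 6 MC libraries alone and 2 in the 4 MC libraries of replicates 1 and 3 alone. GARS1 went from 72.9 ± 12.9 CPM with DMSO to 194 ± 48.6 CPM with Sorafenib (log2 fold change 1.42, SE 0.21, edgeR adjusted p 0.000532, and 1.70 without replicate 2). The other called members were MARS1 (1.12), YARS1 (0.94) and TARS1 (0.82), and WARS1 was at 0.79 (adjusted p 0.0791). With total counts in place of TMM, 1 synthetase was called. The calls of MARS1, YARS1 and TARS1 were lost when any 1 of the 4 libraries of replicates 1 and 3 was left out (edgeR adjusted p 0.0531 to 0.281).

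The endoplasmic reticulum list had 2 called members of 23 (median 0.19). For the endoplasmic reticulum the calls numbered 3 higher and 0 lower of 23 without replicate 2, and 1 in the 4 MC libraries of replicates 1 and 3 alone and 4 by DESeq2 or without replicate 2 of all 6 groups. ERN1, the sensor IRE1 alpha, had 3.91, 7.52 and 3.58 CPM with DMSO and 30.2, 15.6 and 36.8 CPM with Sorafenib (log2 fold change 2.50, SE 0.44, edgeR adjusted p 0.00196, and 3.14 without replicate 2). HERPUD1, of protein degradation at the reticulum, had 48.6, 44.2 and 43.7 CPM with DMSO and 88.9, 71.5 and 136 CPM with Sorafenib (log2 fold change 1.12, SE 0.25, edgeR adjusted p 0.012, and 1.27 without replicate 2). The chaperone HSPA5 was at 938, 923 and 905 CPM with DMSO and 965, 1121 and 913 CPM with Sorafenib and its groups overlapped (log2 fold change 0.12, adjusted p 0.804). The factor XBP1 was at -0.09. Without replicate 2, HSPA5 was at 0.01 and the cochaperone DNAJC3 was called (log2 fold change 1.06, SE 0.25, edgeR adjusted p 0.0158). HERPUD1 lost significance when MC_DMSO replicate 3 or MC_sorafenib replicate 3 was left out (edgeR adjusted p 0.0871 to 0.168). None of 17 heat shock genes was called with either set of libraries (median 0.15), with HSPA1B at 1.01 (adjusted p 0.121) and DNAJB1 at 0.00, whose sign depended on the scaling. For heat shock genes the calls numbered 0 higher and 0 lower of 17 without replicate 2, and 0 by DESeq2 and 1 without a filter on low counts; 2 had an unadjusted p under 0.05 with 6 libraries.

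**Figure D3:**
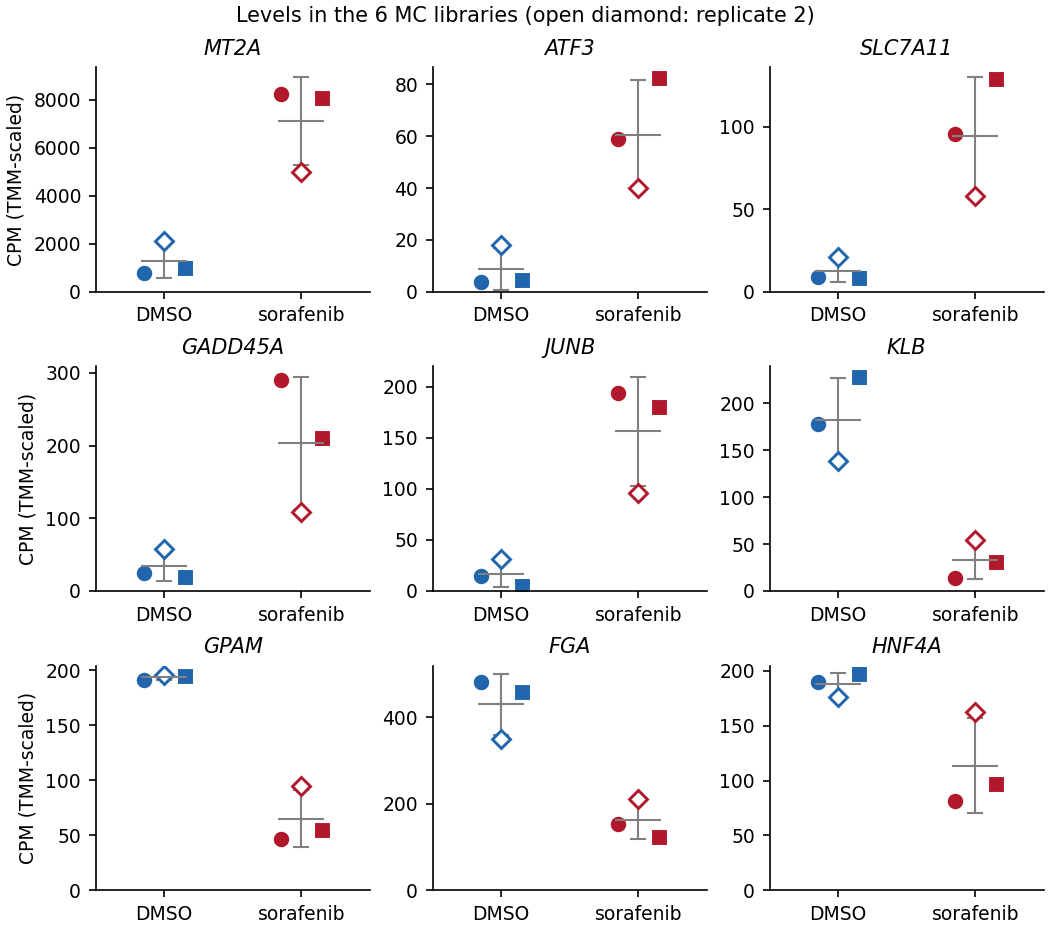
Level of 9 genes in TMM-scaled CPM (y axis) in each MC library, with the mean and SD of 3 as grey lines. Open diamonds are replicate 2, which lies between the other libraries of both groups in MT2A, ATF3, SLC7A11, GADD45A, JUNB, KLB, FGA and HNF4A; in GPAM this holds for Sorafenib only, with the 3 DMSO libraries at 191, 196 and 195 CPM.

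By the rule for named genes, the 10 highest log2 fold changes among called genes without overlap and with a mean of at least 5 CPM were those of RNU5B-1 and MT-TV, treated below, BHLHE40, JUNB, GADD45B, MT1M, RASD1, KLF10, SLC7A11 and MT1X. BHLHE40 (ENSG00000134107, chr3:4979437-4985323), a circadian and hypoxic repressor, had 3.40, 9.703 and 0.860 CPM with DMSO and 77.4, 21.3 and 45.4 CPM with Sorafenib (log2 fold change 3.47, SE 0.59, edgeR adjusted p 0.00131, and 4.80 without replicate 2). JUNB (ENSG00000171223, chr19:12791486-12793315), a subunit of the AP-1 factor, had 14.2, 31.8 and 5.16 CPM with DMSO and 193, 95.4 and 179.9 CPM with Sorafenib (log2 fold change 3.24, SE 0.49, edgeR adjusted p 0.000537, and 4.24 without replicate 2). GADD45B, an activator of stress kinases, had 19.0, 68.9 and 11.6 CPM with DMSO and 352, 168 and 329 CPM with Sorafenib (log2 fold change 3.13, SE 0.65, edgeR adjusted p 0.00767, and 4.45 without replicate 2). In all 3 genes DMSO replicate 2 was the highest DMSO library, and without replicate 2 the log2 fold changes were 4.80, 4.24 and 4.45. KLF10, a zinc finger factor induced by TGF-beta, rose by 2.99 (SE 0.48). RASD1, a small GTPase of the Ras superfamily, had 1.01, 2.67 and 0.287 CPM with DMSO and 9.63, 5.92 and 13.6 CPM with Sorafenib (log2 fold change 3.00, SE 0.77, edgeR adjusted p 0.0344, and 4.09 without replicate 2). For GADD45B, the call ended on leaving out MC_DMSO replicate 1 or MC_DMSO replicate 3 (edgeR adjusted p 0.0603 to 0.0674). The call of RASD1 was lost when any 1 of the 4 libraries of replicates 1 and 3 was left out (edgeR adjusted p 0.0862 to 0.215).

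Sorafenib inhibits RAF, so genes known to report ERK activity were listed. Of 19 tested, 3 rose and 0 fell (median 0.49). For ERK output the calls numbered 3 higher and 0 lower of 19 without replicate 2, and 5 without a filter on low counts. The negative feedback genes DUSP6 and SPRY4 were at 0.43 and 0.85, the factors ETV4 and EGR1 at 0.18 and -0.67, and the cyclin CCND1 at -0.57, none past the test (adjusted p 0.135 to 0.777). MYC had 12.3, 16.7 and 4.59 CPM with DMSO and 25.0, 24.7 and 68.9 CPM with Sorafenib (log2 fold change 1.84, adjusted p 0.105). The called members were KLF6, a zinc finger factor (1.07), SPRED2, an inhibitor of RAF activation (1.74), and the stress-inducible IER3 (1.15), all higher. KLF6 lost significance when MC_DMSO replicate 1 was left out (edgeR adjusted p 0.0577). For SPRED2, the call ended on leaving out MC_DMSO replicate 3, MC_sorafenib replicate 1 or MC_sorafenib replicate 3 (edgeR adjusted p 0.0531 to 0.159). The call of IER3 was lost when MC_DMSO replicate 3 or MC_sorafenib replicate 1 was left out (edgeR adjusted p 0.133 to 0.178).

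NFKBIA, the inhibitor of NF-kappa B and itself its target, went from 233 ± 104 CPM with DMSO to 1055 ± 321 CPM with Sorafenib (log2 fold change 2.18, SE 0.31, edgeR adjusted p 0.000532, and 2.79 without replicate 2), with 212, 347 and 142 CPM with DMSO and 1303, 692 and 1171 CPM with Sorafenib. It was the single called gene of 20 in the list of immunoproteasome and antigen presentation, whose median was 0.02, and -0.09 with total counts. UBD, a ubiquitin-like modifier, had 48.8, 39.3 and 62.2 CPM with DMSO and 32.4, 15.2 and 17.2 CPM with Sorafenib (log2 fold change -1.21, adjusted p 0.0818), and the chemokine gene CXCL8 was at 0.126 to 2.23 CPM in the 6 libraries. VEGFA, the vascular growth factor, had 16.3, 23.0 and 9.03 CPM with DMSO and 63.3, 43.0 and 78.0 CPM with Sorafenib (log2 fold change 1.95, SE 0.29, edgeR adjusted p 0.000532, and 2.46 without replicate 2). ADM, encoding the vasodilator adrenomedullin, rose by 2.09. These were 2 of 24 genes of glycolysis and hypoxia, with LDHA at 0.25 and NDRG1 at -0.18, neither called. For glycolysis and hypoxia the calls numbered 2 higher and 0 lower of 25 without replicate 2, and 4 without a filter on low counts. For antigen presentation the calls numbered 1 higher and 0 lower of 20 without replicate 2. They numbered 1 higher and 1 lower with total counts, by DESeq2 or without a filter on low counts. ADM lost significance when MC_DMSO replicate 1 or MC_DMSO replicate 3 was left out (edgeR adjusted p 0.0578 to 0.0689).

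Among 20 p53 targets, 3 rose and 0 fell (median 0.10, and -0.02 with total counts), beside 1.8% higher and 0.793% lower over all genes. GADD45A (ENSG00000116717, chr1:67685201-67688334), a growth arrest gene that other stress factors also induce, had 25.3, 57.5 and 19.9 CPM with DMSO and 291, 108 and 211 CPM with Sorafenib (log2 fold change 2.59, SE 0.36, edgeR adjusted p 0.000532). Its log2 fold change without replicate 2 was 3.45 (SE 0.33, edgeR adjusted p 3.45e-06). TNFRSF10B, the death receptor DR5, rose by 0.92. The classical targets CDKN1A and MDM2 were at 0.36 and -0.13 and BTG2 at -0.87, none called. For p53 targets the calls numbered 3 higher and 0 lower of 20 without replicate 2. In the BCL2 family, which sets the threshold of apoptosis, 2 of 13 members rose and 1 fell. The killers BBC3 (PUMA), which is also listed among the p53 targets, and BCL2L11 (BIM) went from 118 ± 22.5 CPM with DMSO to 272 ± 82.8 CPM with Sorafenib and from 13.4 ± 7.997 CPM with DMSO to 35.8 ± 9.59 CPM with Sorafenib (log2 fold changes 1.21 and 1.45), and BOK fell by 1.22. PMAIP1 had 0.504, 1.21 and 1.43 CPM with DMSO and 3.49, 1.97 and 11.9 CPM with Sorafenib (log2 fold change 2.47, edgeR adjusted p 0.0758). Its DMSO levels were low and Sorafenib replicate 3 was far above the other Sorafenib libraries. The survival gene MCL1 was at 0.58 (edgeR adjusted p 0.208). For the BCL2 family the calls numbered 2 higher and 1 lower of 15 without replicate 2, and 1 in the 6 MC libraries alone. For TNFRSF10B, BBC3 and BCL2L11, the call ended on leaving out any 1 of the 4 libraries of replicates 1 and 3 (edgeR adjusted p 0.0504 to 0.246). The call of BOK was lost when any 1 of the 4 libraries of replicates 1 and 3 or MC_sorafenib replicate 2 was left out (edgeR adjusted p 0.0803 to 0.259).

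Of 26 NRF2 antioxidant genes, 4 rose and 0 fell (median 0.22). For NRF2 targets the calls numbered 5 higher and 0 lower of 26 without replicate 2, and 2 with total counts or in the 6 MC libraries alone. TXNRD1, thioredoxin reductase, had 66.3, 90.5 and 57.2 CPM with DMSO and 148, 136 and 196 CPM with Sorafenib (log2 fold change 1.17, SE 0.22, edgeR adjusted p 0.00324, and 1.46 without replicate 2). Both subunits of the enzyme that starts glutathione synthesis, GCLM and GCLC, rose by 1.47 and 1.06, and the glutathione reductase GSR by 0.76. The widely used markers NQO1 and HMOX1 were at -0.11 and -0.04, with 63.3, 31.1 and 37.1 CPM with DMSO and 70.5, 32.2 and 25.6 CPM with Sorafenib for HMOX1, and neither was called. GCLC and GSR lost significance when any 1 of the 4 libraries of replicates 1 and 3 was left out (edgeR adjusted p 0.0663 to 0.247). For GCLM, the call ended on leaving out MC_DMSO replicate 1 or MC_sorafenib replicate 3 (edgeR adjusted p 0.0683 to 0.0707).

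Several genes of sterol synthesis were lower with Sorafenib. Of 24 genes of sterol synthesis and uptake, 4 fell, 0 rose and 22 had a negative sign, with a median of -0.70. Without replicate 2, 6 were lower (median -0.91). For sterol genes the calls numbered 0 higher and 6 lower of 24 without replicate 2, and 8 without a filter on low counts or without replicate 2 of all 6 groups and 9 by DESeq2. FDPS, which makes farnesyl pyrophosphate, had 154, 117 and 161 CPM with DMSO and 55.9, 94.0 and 68.5 CPM with Sorafenib (log2 fold change -0.99, SE 0.22, edgeR adjusted p 0.013, and -1.36 without replicate 2). MVK, mevalonate kinase, had 100.04, 42.2 and 92.2 CPM with DMSO and 40.6, 33.4 and 18.5 CPM with Sorafenib (log2 fold change -1.35, SE 0.32, edgeR adjusted p 0.0204, and -1.72 without replicate 2). DHCR7, the last step to cholesterol, fell by 1.08, and MSMO1, a sterol demethylating oxidase, by 0.97, the latter not called without replicate 2 (edgeR adjusted p 0.0599). HMGCS1 and SQLE were at -0.52 (adjusted p 0.105) and -0.65 (adjusted p 0.108). The call of FDPS was lost when any 1 of the 4 libraries of replicates 1 and 3 was left out (edgeR adjusted p 0.0695 to 0.116). MVK lost significance when MC_DMSO replicate 1, MC_DMSO replicate 3 or MC_sorafenib replicate 3 was left out (edgeR adjusted p 0.107 to 0.178). For DHCR7, the call ended on leaving out MC_DMSO replicate 3, MC_sorafenib replicate 1 or MC_sorafenib replicate 3 (edgeR adjusted p 0.106 to 0.232). The call of MSMO1 was lost when any 1 of the 4 libraries of replicates 1 and 3 or MC_sorafenib replicate 2 was left out (edgeR adjusted p 0.0532 to 0.159).

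In fatty acid synthesis, 2 of 15 genes fell and 0 rose (median -0.53). For fatty acid synthesis the calls numbered 0 higher and 3 lower of 15 without replicate 2, and 4 by DESeq2, without a filter on low counts, in the 4 MC libraries of replicates 1 and 3 alone or without replicate 2 of all 6 groups. GPAM (ENSG00000119927, chr10:112149865-112215377), the first enzyme of triglyceride synthesis, had 191, 196 and 195 CPM with DMSO and 46.4, 94.8 and 54.4 CPM with Sorafenib (log2 fold change -1.58, SE 0.25, edgeR adjusted p 0.000833, and -1.96 without replicate 2). The 3 DMSO libraries were almost equal and Sorafenib replicate 2 was the nearest to them. FADS1, a fatty acid desaturase, fell by 0.91. FASN had 754, 585 and 732 CPM with DMSO and 434, 495 and 349 CPM with Sorafenib and passed without replicate 2 and not with it (log2 fold change -0.94, SE 0.25, edgeR adjusted p 0.0291). SCD was at -0.57 (adjusted p 0.279). FADS1 lost significance when any 1 of the 4 libraries of replicates 1 and 3 was left out (edgeR adjusted p 0.105 to 0.248).

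Among 16 genes of lipid oxidation, EHHADH of the peroxisome had 51.0, 42.2 and 63.8 CPM with DMSO and 15.8, 21.3 and 17.4 CPM with Sorafenib (log2 fold change -1.53, SE 0.26, edgeR adjusted p 0.0015, and -1.81 without replicate 2) and was the single call, and the median was -0.35. CPT1A was at -0.68 (edgeR adjusted p 0.134) and the lipid droplet coat PLIN2 at 0.17. ANGPTL4, an inhibitor of lipoprotein lipase, was at 0.50 with replicate 2 and -0.42 without it. Its levels were low, at 0.504, 0.243 and 1.43 CPM with DMSO and 0, 1.78 and 1.45 CPM with Sorafenib. For lipid oxidation the calls numbered 0 higher and 3 lower of 16 without replicate 2, and 2 without a filter on low counts and 3 by DESeq2 or without replicate 2 of all 6 groups. Of 12 apolipoprotein and lipoprotein assembly genes, all 12 had a negative sign under TMM (median -0.42). MTTP, which loads lipid onto apolipoprotein B, went from 68.8 ± 6.88 CPM with DMSO to 31.8 ± 6.05 CPM with Sorafenib (log2 fold change -1.12, SE 0.22, edgeR adjusted p 0.00596, and -1.30 without replicate 2). APOB itself had 5018, 4673 and 4575 CPM with DMSO and 2252, 3410.3 and 1921 CPM with Sorafenib, and was called without replicate 2 (log2 fold change -1.22, SE 0.30, edgeR adjusted p 0.022) but not with it (0.0572). APOA1 and APOM were at -0.30 and -0.27. For apolipoprotein genes the calls numbered 0 higher and 3 lower of 13 without replicate 2, and 2 in the 4 MC libraries of replicates 1 and 3 alone, 3 with total counts or in the 6 MC libraries alone, 4 without replicate 2 of all 6 groups and 5 by DESeq2 or without a filter on low counts. ACSM3, a mitochondrial acyl-CoA synthetase named by the size of its fall, had 169.8, 139.7 and 179.7 CPM with DMSO and 19.1, 57.9 and 37.8 CPM with Sorafenib (log2 fold change -2.10, SE 0.33, edgeR adjusted p 0.000816, and -2.63 without replicate 2). For MTTP, the call ended on leaving out MC_DMSO replicate 1 or MC_sorafenib replicate 3 (edgeR adjusted p 0.0503 to 0.0807).

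Some genes of secreted plasma proteins fell. Of 24 genes of coagulation, complement and acute phase, 3 fell, 0 rose and 19 had a negative sign (median -0.35). For plasma protein genes the calls numbered 0 higher and 3 lower of 24 without replicate 2, and 1 in the 4 MC libraries of replicates 1 and 3 alone, 5 with total counts, 6 without a filter on low counts and 8 by DESeq2. FGA (ENSG00000171560, chr4:154583126-154590742), the fibrinogen alpha chain, had 482, 349 and 458 CPM with DMSO and 154, 211 and 124 CPM with Sorafenib (log2 fold change -1.40, SE 0.24, edgeR adjusted p 0.0015, and -1.78 without replicate 2). FGB of the same complex had 257, 258 and 280 CPM with DMSO and 189, 196 and 198 CPM with Sorafenib (log2 fold change -0.45, edgeR adjusted p 0.183). FGG, also of this complex, had 524, 443 and 422 CPM with DMSO and 200, 277 and 298 CPM with Sorafenib. FGB and FGG were lower without overlap and were not called. F7, coagulation factor VII, had 21.3, 15.5 and 17.9 CPM with DMSO and 1.26, 5.73 and 5.93 CPM with Sorafenib (log2 fold change -2.09, SE 0.50, edgeR adjusted p 0.0207, and -2.45 without replicate 2), and A2M, a protease inhibitor, fell by 0.77. ALB had 3623, 4008 and 3178 CPM with DMSO and 2703, 3242 and 3076 CPM with Sorafenib (log2 fold change -0.26, adjusted p 0.502), SERPINA1 was at -0.26 and TTR at -0.91 (adjusted p 0.0667). In bulk culture, fewer cells that express a gene and less of its RNA per cell cannot be told apart. The call of F7 was lost when MC_DMSO replicate 1, MC_DMSO replicate 3 or MC_sorafenib replicate 1 was left out (edgeR adjusted p 0.0738 to 0.115). A2M lost significance when any 1 of the 4 libraries of replicates 1 and 3 was left out (edgeR adjusted p 0.0583 to 0.147).

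Liver transcription factors gave 0 calls of 17 with 6 libraries and 2 lower without replicate 2. HNF4A (ENSG00000101076, chr20:44355699-44432845), a nuclear receptor that maintains hepatocyte identity, had 189.6, 176 and 197 CPM with DMSO and 81.3, 163 and 96.4 CPM with Sorafenib. Replicate 2 of Sorafenib was close to the DMSO libraries, and the log2 fold change was -0.73 (edgeR adjusted p 0.0681) with it and -1.14 (SE 0.23, edgeR adjusted p 0.00432) without. PROX1 was the other gene called without replicate 2 (log2 fold change -1.20, SE 0.33, edgeR adjusted p 0.0408). CEBPA and NR0B2 were at -0.17 and -0.68 (adjusted p 0.137). For liver factors the calls numbered 0 higher and 2 lower of 17 without replicate 2, and 2 with total counts or in the 4 MC libraries of replicates 1 and 3 alone and 3 by DESeq2, without a filter on low counts or without replicate 2 of all 6 groups; 6 had an unadjusted p under 0.05 with 6 libraries. Of 13 genes of xenobiotic metabolism, the steroid sulfotransferase SULT2A1 was the single call and had 91.9, 85.1 and 69.4 CPM with DMSO and 20.5, 36.5 and 21.9 CPM with Sorafenib (log2 fold change -1.65, SE 0.31, edgeR adjusted p 0.00324, and -1.94 without replicate 2), with TIPARP at 1.15 (adjusted p 0.154). None of 19 drug and bile transporters was called with or without replicate 2 (median -0.47), with ABCC2 at -0.15. For xenobiotic metabolism the calls numbered 0 higher and 1 lower of 14 without replicate 2. For drug transporters the calls numbered 0 higher and 0 lower of 19 without replicate 2, and 0 by DESeq2; 4 had an unadjusted p under 0.05 with 6 libraries. CYP7A1, of bile acid synthesis, was at 0.289 to 5.59 CPM.

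KLB (ENSG00000134962, chr4:39406930-39451533), the coreceptor through which FGF19 and FGF21 signal in liver, had the lowest log2 fold change among 25 genes of growth factor and insulin signalling and was the single call of that list. It had 178, 139 and 229 CPM with DMSO and 14.1, 54.3 and 30.5 CPM with Sorafenib, without overlap, and went from 182 ± 44.9 CPM with DMSO to 33.0 ± 20.2 CPM with Sorafenib (SD, n = 3; log2 fold change -2.47, SE 0.40, edgeR adjusted p 0.000849), with a log2 fold change of -3.20 (SE 0.45, edgeR adjusted p 0.000168) without replicate 2. SOS1, an exchange factor for RAS, and the receptor ERBB3 were called without replicate 2 and not with it (-1.14 and -1.05). SOS1 had 84.2, 99.7 and 70.4 CPM with DMSO and 34.2, 84.3 and 36.9 CPM with Sorafenib. Of 10 genes of glucose production and sensing, 0 were called with 6 libraries and 2 were lower without replicate 2, the pyruvate carboxylase gene PC and the glucose transporter gene SLC2A2 (-2.10 and -1.88). TXNIP was at -0.77 (adjusted p 0.218) and PCK2 at -0.22. For growth factor genes the calls numbered 0 higher and 3 lower of 25 without replicate 2. They numbered 2 lower by DESeq2, and 1 higher and 2 lower without a filter on low counts. Without replicate 2 of all 6 groups there were 3 calls of either direction. For glucose genes the calls numbered 0 higher and 2 lower of 11 without replicate 2, and 1 by DESeq2, without a filter on low counts or without replicate 2 of all 6 groups; 3 had an unadjusted p under 0.05 with 6 libraries.

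The remaining 9 of the 10 named falls beside KLB included F7 and ACSM3 above and MT-TP below. The others were AMDHD2 (-2.06) and NAGK (-1.91), both enzymes of amino sugar metabolism, the calcium channel ORAI3 (-2.62), the glutamate carrier SLC1A2 (-2.54), PLPPR1 (-2.59) and CHMP6 (-2.05), of endosomal sorting. AMDHD2 had 47.4, 20.1 and 44.1 CPM with DMSO and 6.70, 13.2 and 7.24 CPM with Sorafenib (log2 fold change -2.06, SE 0.40, edgeR adjusted p 0.00428, and -2.73 without replicate 2). NAGK had 19.5, 20.1 and 28.0 CPM with DMSO and 2.79, 11.8 and 3.76 CPM with Sorafenib (log2 fold change -1.91, SE 0.45, edgeR adjusted p 0.0217, and -2.87 without replicate 2). For NAGK, ORAI3, SLC1A2 and PLPPR1, the call ended on leaving out any 1 of the 4 libraries of replicates 1 and 3 (edgeR adjusted p 0.0502 to 0.207). The call of CHMP6 was lost when any 1 of the 4 libraries of replicates 1 and 3 or MC_sorafenib replicate 2 was left out (edgeR adjusted p 0.0781 to 0.238).

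The 13 protein genes of mitochondrial DNA changed in both directions, with 1 higher and 2 lower. MT-CO1, a core subunit of cytochrome oxidase, had 1923, 2533 and 1903 CPM with DMSO and 5987, 3499 and 5691 CPM with Sorafenib (log2 fold change 1.26, SE 0.22, edgeR adjusted p 0.0015, and 1.59 without replicate 2), while MT-ND3 and MT-ND5 of complex I fell by 0.68 and 0.83. Without replicate 2, 2 were higher and 3 lower, with MT-CO2 at -1.09 and MT-ND1 at 0.94. None of 32 nuclear genes of the respiratory chain was called (median 0.10, and -0.02 with total counts), with NDUFS1 at -0.73 (adjusted p 0.0696). For mitochondrial DNA the calls numbered 2 higher and 3 lower of 13 without replicate 2, and the same by DESeq2. They numbered 1 higher and 4 lower without a filter on low counts. In the 4 MC libraries of replicates 1 and 3 alone there were 5 calls of either direction. For nuclear respiratory genes the calls numbered 0 higher and 0 lower of 32 without replicate 2, and 1 without a filter on low counts and 2 by DESeq2; 4 had an unadjusted p under 0.05 with 6 libraries. MT-ND3 lost significance when any 1 of the 4 libraries of replicates 1 and 3 or MC_DMSO replicate 2 was left out (edgeR adjusted p 0.0855 to 0.267). For MT-ND5, the call ended on leaving out any 1 of the 4 libraries of replicates 1 and 3 or MC_sorafenib replicate 2 (edgeR adjusted p 0.0557 to 0.212).

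Proliferation genes gave no call with 6 libraries, where 2.6% of all genes tested were called. Of 30 mitotic genes 0 were called (median -0.01), with MKI67 at -0.47 (adjusted p 0.39) and CCNB1 at -0.13. DNA replication likewise gave 0 of 30 (median -0.11), with MCM2 at 0.10 and CCNE2 at 0.16, and without replicate 2 the polymerase gene POLE was lower (-1.62). Ribosomal protein genes of the cytosol (71 tested, median 0.28, RPL3 0.31) and of mitochondria (74, median 0.11, MRPL12 -0.09) gave 0 calls. Of the cytosolic genes, 60 had a positive and 11 a negative sign, and 57 and 14 without replicate 2. They summed to 74543, 85902 and 81248 CPM with DMSO and 101066, 94570 and 105040 CPM with Sorafenib, and their median was 0.16 with total counts. Among 31 proteasome subunits, PSMD6 rose by 1.03, a call absent without replicate 2 (edgeR adjusted p 0.0629), and PSMD4 was at -0.08. For mitosis the calls numbered 0 higher and 0 lower of 30 without replicate 2. They numbered 1 higher by DESeq2, and 1 higher and 1 lower without a filter on low counts. With 6 libraries, 3 had an unadjusted edgeR p under 0.05. For DNA replication the calls numbered 0 higher and 1 lower of 30 without replicate 2, and 0 by DESeq2 and 1 without replicate 2 of all 6 groups; 2 had an unadjusted p under 0.05 with 6 libraries. For cytosolic ribosomes the calls numbered 0 higher and 0 lower of 71 without replicate 2. They numbered 1 higher by DESeq2 and 1 lower without a filter on low counts. Calls of either direction were 1 in the 4 MC libraries of replicates 1 and 3 alone and 2 without replicate 2 of all 6 groups. With 6 libraries, 13 had an unadjusted edgeR p under 0.05. For mitochondrial ribosomes the calls numbered 0 higher and 0 lower of 75 without replicate 2. They numbered 1 higher by DESeq2, and 3 higher and 1 lower without a filter on low counts. Without replicate 2 of all 6 groups there were 2 calls of either direction. With 6 libraries, 8 had an unadjusted edgeR p under 0.05. For the proteasome the calls numbered 0 higher and 0 lower of 31 without replicate 2, and 0 with total counts, in the 6 MC libraries alone or in the 4 MC libraries of replicates 1 and 3 alone, 2 without a filter on low counts or without replicate 2 of all 6 groups and 3 by DESeq2. The call of PSMD6 was lost when any 1 of the 4 libraries of replicates 1 and 3 or MC_DMSO replicate 2 was left out (edgeR adjusted p 0.0657 to 0.219). A gene that is not called is not shown to be unchanged, since called log2 fold changes were at least 0.68 in size.

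Single members were called in further lists, beside 2.6% of all genes tested. AXIN2, a feedback inhibitor and target of Wnt signalling, went from 67.9 ± 19.0 CPM with DMSO to 201 ± 76.2 CPM with Sorafenib (log2 fold change 1.57, SE 0.30, edgeR adjusted p 0.00386, and 1.96 without replicate 2), as 1 of 10 Wnt targets, with LGR5 at 0.14. CCN1, a secreted matrix protein, had 17.8, 32.0 and 3.30 CPM with DMSO and 121, 77.6 and 164 CPM with Sorafenib (log2 fold change 2.81, SE 0.60, edgeR adjusted p 0.00883, and 3.74 without replicate 2), while the related CCN2 was at 0.14, in a list of 19. In autophagy and lysosome (24 tested), MAP1LC3B, which coats autophagosomes, rose by 0.87 and the proton pump subunit ATP6V0D1 fell by 1.52. SQSTM1 and WIPI1 were at 0.25 and -0.58. Of 15 epithelial and mesenchymal genes, 0 were called with 6 libraries, and 2 were higher without replicate 2, among them ZEB1 (1.41). SNAI1 had 1.26, 4.37 and 0.430 CPM with DMSO and 1.12, 6.52 and 9.698 CPM with Sorafenib (log2 fold change 1.59, adjusted p 0.323), CDH1 was at 0.48, and VIM had a count of 0 in all 6 libraries. For epithelial and mesenchymal genes the calls numbered 2 higher and 0 lower of 15 without replicate 2, and 1 in the 6 MC libraries alone and 2 by DESeq2, without a filter on low counts, in the 4 MC libraries of replicates 1 and 3 alone or without replicate 2 of all 6 groups; 4 had an unadjusted p under 0.05 with 6 libraries. For Wnt targets the calls numbered 1 higher and 0 lower of 10 without replicate 2, and 3 without a filter on low counts. For matrix genes the calls numbered 1 higher and 0 lower of 19 without replicate 2. For autophagy the calls numbered 1 higher and 1 lower of 25 without replicate 2, and 1 lower with total counts. They numbered 0 in the 6 MC libraries alone or in the 4 MC libraries of replicates 1 and 3 alone. CCN1 and MAP1LC3B lost significance when MC_DMSO replicate 1, MC_DMSO replicate 3 or MC_sorafenib replicate 3 was left out (edgeR adjusted p 0.0515 to 0.247). For ATP6V0D1, the call ended on leaving out MC_DMSO replicate 3, MC_sorafenib replicate 1 or MC_sorafenib replicate 3 (edgeR adjusted p 0.138 to 0.494).

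Short RNAs are uncertain here, since the libraries are made from polyadenylated messages. Of 8 small nuclear RNAs and snoRNA host genes tested, 3 rose. For these short RNAs the calls numbered 4 higher and 0 lower of 9 without replicate 2, and 1 in the 6 MC libraries alone. RNU5B-1, of the U5 particle of the spliceosome, had 0.756, 0.728 and 1.00 CPM with DMSO and 42.3, 9.28 and 15.9 CPM with Sorafenib (log2 fold change 4.72, SE 0.75, edgeR adjusted p 0.000833, and 5.00 without replicate 2), and RNU5A-1, a close copy whose reads may be shared with it, had 0, 0.728 and 0 CPM with DMSO and 3.21, 5.53 and 10.4 CPM with Sorafenib, with 3 counts in all DMSO libraries together. SNHG1, a host gene of snoRNAs, rose by 0.91. The mitochondrial transfer RNA gene MT-TV had 26.7, 16.5 and 9.89 CPM with DMSO and 390.0, 57.5 and 126 CPM with Sorafenib (log2 fold change 3.43, SE 0.49, edgeR adjusted p 0.000532, and 3.79 without replicate 2), a wide spread with Sorafenib replicate 1 the highest. MT-TP had 42.0, 11.6 and 20.5 CPM with DMSO and 2.65, 7.31 and 1.01 CPM with Sorafenib (log2 fold change -2.82, SE 0.72, edgeR adjusted p 0.0319, and -4.09 without replicate 2). The call of RNU5A-1 was lost when MC_DMSO replicate 1, MC_DMSO replicate 3 or MC_sorafenib replicate 3 was left out (edgeR adjusted p 0.141 to 0.182). SNHG1 lost significance when MC_DMSO replicate 2, MC_DMSO replicate 3, MC_sorafenib replicate 1 or MC_sorafenib replicate 3 was left out (edgeR adjusted p 0.0951 to 0.313). For MT-TP, the call ended on leaving out any 1 of the 4 libraries of replicates 1 and 3 (edgeR adjusted p 0.0676 to 0.202).

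**Figure D4:**
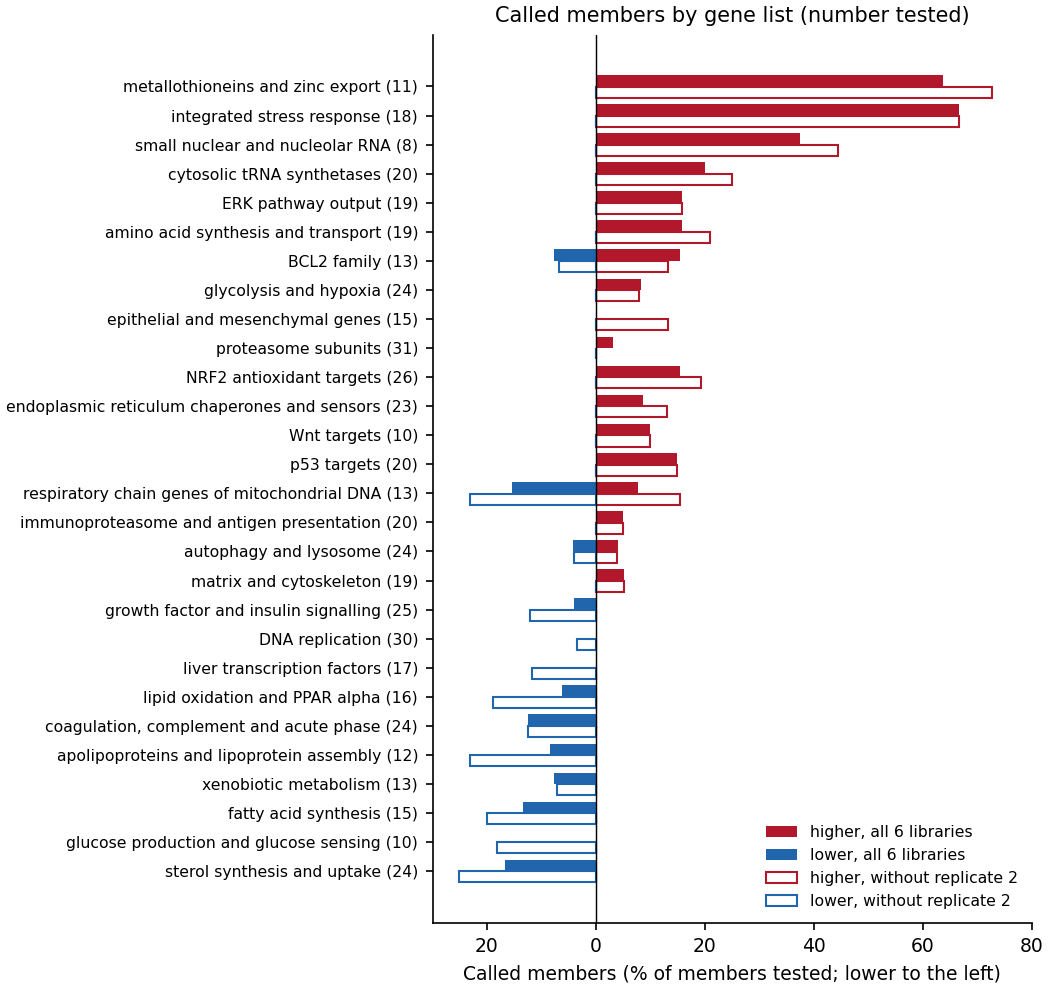
Called members as a percentage of the members tested (bars to the right higher, to the left lower), for lists with a call in either fit and sorted by median log2 fold change. Filled bars are all 6 MC libraries and open bars the fit without replicate 2: metallothioneins have 7 and 8 higher of 11, the integrated stress response 12 in both of 18, and sterol synthesis 4 and 6 lower of 24.

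Genes called without replicate 2 and not with it were also named. The 5 higher genes of lowest p in that set were MT1B, described above, SMIM13, SNHG12, DNAJB4 and AUNIP. DNAJB4, a cochaperone, had 2.39, 8.98 and 0.430 CPM with DMSO and 12.6, 8.69 and 12.4 CPM with Sorafenib (log2 fold change 1.60 with replicate 2, and without it 3.10, SE 0.64, edgeR adjusted p 0.00505). In SMIM13, SNHG12 and AUNIP the log2 fold changes went from 1.58, 1.00 and 1.63 to 2.44, 1.55 and 2.69. The 5 lower genes were SERPIND1, SSTR5-AS1, TST, EPOP and SLC13A3. SERPIND1, heparin cofactor II, had 56.2, 73.0 and 82.7 CPM with DMSO and 9.22, 57.9 and 16.6 CPM with Sorafenib (log2 fold change -1.36 with replicate 2, and without it -2.44, SE 0.35, edgeR adjusted p 0.000216). SLC13A3, a dicarboxylate carrier, had 28.1, 22.8 and 24.4 CPM with DMSO and 5.03, 23.7 and 7.96 CPM with Sorafenib (-1.06 and -2.03). In both genes Sorafenib replicate 2 was within the range of DMSO. SSTR5-AS1, TST and EPOP went from -1.39, -1.14 and -0.85 to -2.48, -1.86 and -1.50.

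The response with the mimic control was then set beside those with either microRNA mimic, which use other libraries of DMSO and Sorafenib. In M222 580 genes were called (4.38%) and in M512 1319 (9.96%), of 13244. Of the 344 genes called in MC, 341 had the same sign in M222 (99.1%) and 226 were called there in the same direction (65.7%). In M512, 340 had the same sign (98.8%) and 270 were called (78.5%). Over all genes tested, 73.2% had the same sign as MC in M222 and 70.3% in M512. None of the 344 was called in the opposite direction with either mimic, 194 were called with both and 42 with neither. Of the 590 genes called without replicate 2, 281 were also called in M222 (47.6%) and 377 in M512 (63.9%), again in the same direction. The likeness of the libraries of replicate 2 in MC and M222 bears on these shares, and its part was not tested.

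**Figure D5:**
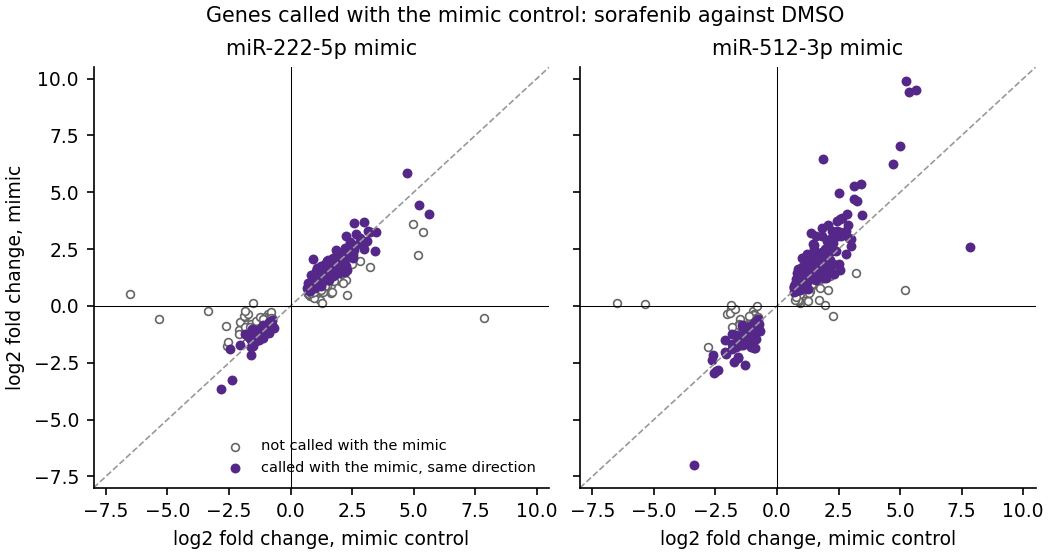
Log2 fold change of Sorafenib against DMSO for the 344 genes called in MC (x axis) and the same genes with each mimic (y axis). Filled points were also called with the mimic in the same direction, 226 for miR-222-5p and 270 for miR-512-3p, and the dashed line marks equal values.

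Whether the effect of Sorafenib differed from that in MC was tested as an interaction in edgeR. For miR-222-5p 0 of 13244 genes passed (0%), with 260 at an unadjusted p under 0.05, 1 by DESeq2 and 2 without a filter on low counts. For miR-512-3p 1 gene passed (0.00755%), with 667 at an unadjusted p under 0.05, 12 by DESeq2 and 28 without a filter. It was IGFBP1 (ENSG00000146678, chr7:45888360-45893660), with an interaction of -3.71 on the log2 scale (SE 0.53, edgeR adjusted p 0.00423). In MC it had 29.1, 49.2 and 26.7 CPM with DMSO and 22.5, 71.3 and 23.2 CPM with Sorafenib and was not called (log2 fold change 0.16, adjusted p 0.884), and it was at -0.31 without replicate 2. With the miR-512-3p mimic it was at 551, 495 and 546 CPM with DMSO and 31.3, 40.5 and 63.1 CPM with Sorafenib. With Sorafenib the ranges of both transfections overlapped through MC replicate 2 alone, since MC replicates 1 and 3 were below each M512 library. With DMSO each M512 library was above each MC library. UBD had an interaction of 1.97 with miR-512-3p (adjusted p 0.617). NAGK and CHMP6, called in MC and in neither mimic, were at -0.43 and -0.72 in M222 and at -0.30 and -0.37 in M512, and their interactions did not pass.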

How the data were processed

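RNA of HepG2 cells transfected with Lipofectamine RNAiMAX, given drug or solvent 24 h later and lysed after a further 24 h was made into 3′ end libraries (QuantSeq FWD) by the authors, who trimmed reads, aligned them with STAR to GRCh38 and counted them per gene with HTSeq. The deposited values used here are raw read counts per gene; the deposited normalised table was not used, and the annotation release, strand setting and use of molecular identifiers are not given in the sources used here. Of 60199 lines, 92 that name no gene (1 count in the 18 libraries of 24 h) were left out.

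The test was the quasi-likelihood F test of edgeR (version 4.0.16, R 4.3.3) with TMM scaling and its default expression filter, fitted to the 18 libraries of 24 h with 1 coefficient per group (12 residual degrees of freedom) and adjusted by Benjamini-Hochberg over all genes tested. The fit without replicate 2 of both MC groups used 16 libraries (10 degrees of freedom). SE is the size of the log2 fold change divided by the square root of F, and levels are TMM-scaled CPM. The p-values measure the spread between replicates that the labels call biological. Symbols and GRCh38 coordinates are from GENCODE release 44. Alternatives were DESeq2 1.42.0, other scalings and filters, a replicate block, the 6 MC libraries alone and each library left out.

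The genes, gene lists and rules were chosen with earlier results of these data known. Named genes were the 10 highest and 10 lowest log2 fold changes among called genes without overlap and with a mean of at least 5 CPM, up to 4 called members of lowest p per list, fixed exemplars of each list, the 5 higher and 5 lower genes of lowest p called without replicate 2 only, genes of a called interaction, IGFBP1 and UBD. A further 20 members of lists were named after their values were seen: ATF3, CEBPB, CEBPG, CTH, DDIT4, DNAJC3, ERBB3, MT-CO2, MT-ND1, MT1A, MT1F, MTF1, NUPR1, PC, POLE, PROX1, SESN2, SLC2A2, STC2 and ZEB1. Results for a few named genes are not reported here.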

Additional observations from a re-analysis of the deposited data

Results flagged for a closer look

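IGFBP1 was marked because the effect of Sorafenib differed between transfections, by the interaction test of edgeR. Its effect with the miR-512-3p mimic minus that with the mimic control was -3.71 on the log2 scale (SE 0.53). The cause was not tested.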

How the results depend on the processing

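Against 344 calls with 6 libraries, DESeq2 gave 731, no filter on low counts 684, the 6 MC libraries alone 218 and the fit without replicate 2 of all 6 groups, added after seeing the data, 600; leaving out 1 MC library gave 112 to 602. Against 590 calls without replicate 2, DESeq2 gave 1060 and no filter 920, and leaving out a further library gave 184 to 529. The interaction with miR-222-5p had 0 calls, 1 by DESeq2 and 2 without a filter. That with miR-512-3p had 1 call, 12 by DESeq2, 28 without a filter and 1 to 3 with 1 library left out. The causes were not tested. Of 81 called genes named, 36 kept the call in all 16 settings, and none changed sign in any; among 809 pairs of such a gene and a setting that leaves out no single library, 58 lost the call.

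The replicate numbers were not taken as pairs in the test. Deviations of same-numbered MC libraries from their group means correlated at 0.176, 0.0687 and -0.245. Both libraries of replicate 2 lay nearer to the middle of the response, in opposite directions. The value of 0.0687 therefore cannot show that they are unrelated, and their levels correlated at 0.974 with each other. With a replicate block, 470 genes were called with 6 libraries and 779 without replicate 2.

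Genes that were not called changed sign as follows. ANGPTL4 was at -0.43 in the 6 MC libraries alone without replicate 2, -0.42 without replicate 2 and -0.41 without replicate 2 of all groups, and IGFBP1 at -0.32, -0.31 and -0.29 in the same fits. DNAJB1 was at -0.026 with median-ratio scaling and -0.0259 with DESeq2, -0.11 with total counts, -0.0014 with the stricter filter, -0.0245 in the 6 MC libraries alone, -0.0564 in these without replicate 2, -0.0456 without replicate 2 and -0.0241 without replicate 2 of all groups. HSPA5 was at -0.0031 in the 6 MC libraries alone without replicate 2. With 1 MC library left out, the log2 fold changes ranged from -0.0033 to 1.41 for ANGPTL4, -0.011 to 0.33 for CCN2, -0.35 to 0.11 for CCNB1, -0.28 to 0.61 for CCNE2, -0.46 to 0.12 for CEBPA, -2.21 to 1.77 for CYP1A1, -0.093 to 0.12 for DNAJB1, -0.12 to 0.43 for ETV4, -0.59 to 0.34 for HMOX1, -0.59 to 0.49 for IGFBP1, -0.24 to 0.38 for MCM2, -0.41 to 0.26 for MRPL12, -0.26 to 0.0373 for NQO1 and -0.23 to 0.11 for PSMD4.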
